A study of Mus musculus with 24 samples.

Results

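Gas5, Snhg1, Snhg3, Snhg5, Snhg6, Snhg8 and Snhg12 are 7 mouse genes whose spliced RNA has no known protein product and whose introns hold small nucleolar RNAs (snoRNAs). They were chosen by symbol, out of 35001 gene names in the surface RNA tables and 55335 genes in the blood tables, and each of the 7 was found in both. Surface RNA was measured by AMOUR, in which a random oligo carrying a T7 promoter anneals to RNA on fixed, bead-bound cells and T7 RNA polymerase copies it in place. The 15 surface libraries came from 5 cell types of wild-type C57BL/6 mice, with 3 libraries each: B cells, T cells (by a CD8 T cell kit) and NK cells from spleen, and monocytes and lineage-depleted stem and progenitor cells of the blood (HSPCs) from bone marrow. The other 9 libraries were total RNA of PBMCs, the mononuclear cells of the blood, from wild-type mice in 3 treatment groups named ct, WT and Y, with 3 libraries each, and the labels do not say what these treatments were. The labels name neither the age of the mice nor which libraries came from separate mice. The study describes the surface libraries of a cell type as 3 independent biological replicates, and does not say whether each came from a separate mouse. P-values therefore measure the spread between libraries, which for PBMCs may be technical.

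In a non-coding snoRNA host gene the introns carry the snoRNAs. After splicing, the intron lariat is opened and trimmed back to the snoRNA, which is protected by its proteins and guides chemical modification of ribosomal RNA: box C/D snoRNAs (named Snord) guide ribose methylation and box H/ACA snoRNAs (named Snora) guide pseudouridylation. The remaining exons are joined into a host RNA that is usually short-lived, because ribosomes entering its short reading frames expose it to nonsense-mediated decay, and Gas5 was named for its build-up in growth-arrested cells by this route. A host transcript that keeps an intron still holds the snoRNA sequence, so that a read from the snoRNA fits both the snoRNA and the unspliced host transcript.

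The annotation used for positions, GENCODE M21 on GRCm38, places Gas5 at chr1:161034422-161038539 (+), Snhg1 at chr19:8723475-8726443 (+), Snhg3 at chr4:132348014-132353686 (-), Snhg5 at chr9:88521050-88522929 (-), Snhg6 at chr1:9941959-9944118 (-), Snhg8 at chr3:123507552-123508404 (-) and Snhg12 at chr4:132308623-132311024 (+). It lists 29 snoRNA genes on the same strand within these spans, of which Gas5 holds 10, Snhg1 8, Snhg12 5, Snhg3 and Snhg5 2 each, and Snhg6 and Snhg8 1 each. Snord80 and Snora16a are each listed as a pair of overlapping entries among these 29. The surface tables listed 159 transcripts of the 7 genes in all cell types, 59 of them typed as retained intron, and the annotation here held 50 of the 159. Snhg3 shares 5592 bases of its span with Rcc1 on the same strand, while Gm17300 lies opposite 1611 bases of Snhg3, Zbtb37 opposite 428 bases of Gas5 and Mcmdc2 opposite 127 bases of Snhg6, and reads from these overlaps can be split between the genes.

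The host transcript with the highest mean over the 15 surface libraries was Snhg1-213, a retained-intron transcript of 495 bases in the annotation. Its exons 1 and 3 are shown because each contains a whole snoRNA gene, marked in capitals: Gm22744 within chr19:8725022-8725256 and Snord22 within chr19:8725782-8726002, both on the plus strand. Together these snoRNAs make up 191 of the 495 bases (38.6%).
Snhg1-213 exon 1: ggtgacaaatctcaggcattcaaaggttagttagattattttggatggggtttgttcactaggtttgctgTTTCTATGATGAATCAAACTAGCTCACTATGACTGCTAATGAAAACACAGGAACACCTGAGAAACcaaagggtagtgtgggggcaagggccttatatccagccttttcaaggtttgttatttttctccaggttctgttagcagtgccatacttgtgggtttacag
Snhg1-213 exon 3: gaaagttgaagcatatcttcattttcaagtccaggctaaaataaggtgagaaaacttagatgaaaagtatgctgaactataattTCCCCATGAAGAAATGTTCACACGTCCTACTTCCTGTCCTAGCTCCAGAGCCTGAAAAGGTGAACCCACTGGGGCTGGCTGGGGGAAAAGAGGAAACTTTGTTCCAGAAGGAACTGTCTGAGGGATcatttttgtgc

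A set of snoRNAs from 4 hosts is shown because their levels among the cell types, given further on, can be set against those of the host. Capitals mark TGATGA, the letters of box C, and CTGA, the letters of box D. These sequences are GENCODE M21 entries, written as DNA and read on the RNA strand, on which alone the letters were searched. TGATGA in the 5′ part and CTGA in the 3′ part of the RNA, divided at the midpoint, were found in 18 of the 29 hosted snoRNAs (62.1%) and in 22.2% of the 1507 snoRNA genes of the annotation. A missing match says only that these letters are not there.
Gm23246 (Snhg1): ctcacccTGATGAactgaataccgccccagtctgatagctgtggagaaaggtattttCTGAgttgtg
Gm22680 (Snhg1): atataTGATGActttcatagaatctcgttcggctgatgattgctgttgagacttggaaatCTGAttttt
Snord47 (Gas5): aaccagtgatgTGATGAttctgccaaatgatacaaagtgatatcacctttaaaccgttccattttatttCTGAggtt
Snord99 (Snhg12): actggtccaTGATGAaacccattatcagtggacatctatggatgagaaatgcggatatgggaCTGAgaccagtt
Snord50a (Snhg5): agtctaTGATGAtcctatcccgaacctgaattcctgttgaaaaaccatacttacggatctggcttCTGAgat
Snord50b (Snhg5): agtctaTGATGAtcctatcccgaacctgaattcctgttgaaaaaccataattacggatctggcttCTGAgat

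The last pair differs by C50A alone over 72 bases (98.6% identity, counted from 1 at the 5′ end, Snord50a base first), so the reads of Snord50a and Snord50b can be told apart only where they cross that base. Snora73a and Snora73b of Snhg3, H/ACA-named RNAs of 205 bases that act in the processing of ribosomal RNA precursors, are 96.6% identical with 7 differences. Values of either member of these pairs are therefore uncertain.

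Levels on the surface are in TPM, a share of all transcripts in a library after division by transcript length, summed here over the transcripts of a gene. Depth per surface library was not recoverable from TPM, and between 45448 and 63485 transcripts had a value above 0 in a library. Each defining marker of B cells and monocytes was above all other libraries in its own type, for example Cd79a at 65.7 TPM or more in B cells and at most 5.03 TPM elsewhere. The markers of T and NK cells were likewise apart except Cd3d, at a lowest of 1.61 TPM in T cells and up to 4.08 TPM elsewhere, and Nkg7, at a lowest of 15.8 TPM in NK cells and up to 27.8 TPM elsewhere. In the HSPC libraries Kit reached a mean of 5.29 TPM and Flt3 0.705 TPM, while the highest values elsewhere, 10.7 and 11.6 TPM, were above them. The same held for each of the 6 HSPC markers. Summed, they were at 113 to 247 TPM in HSPC libraries and at 705 to 1115 TPM in monocyte libraries. The summed markers of neutrophils were at 1406 to 1502 TPM in monocyte libraries and at most 54.9 TPM in all others. Monocytes were also sequenced on another platform than the other cell types and quantified against a larger transcript list, so cell type, platform and list cannot be told apart for them. Each cell type was compared with the mean of the other 4 by limma on log2(TPM + 1) over 10312 genes, and a gene was called at a Benjamini-Hochberg adjusted p below 0.05. The median difference of all genes on the log2 scale was 2.48 in monocytes, -0.34 in NK cells, -0.44 in B cells, -0.77 in HSPCs and -0.96 in T cells, so the calls of the host genes were read against these shifts.

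Snhg1 was the most abundant of the 7 on T cells and was far above its level on every other cell type. Its summed level was 182, 228 and 119 TPM in the 3 T cell libraries, and 63.9, 43.8 and 48.1 TPM in NK cells. It was 28.0, 33.6 and 21.6 TPM in monocytes, 15.5, 22.2 and 23.2 TPM in B cells, and 7.80, 15.7 and 12.8 TPM in HSPCs. No T cell library overlapped any other library, and no NK cell library overlapped the 3 lower cell types, whereas monocytes overlapped B cells and B cells overlapped HSPCs. The T cell level exceeded the mean of the other 4 cell types by 2.77 ± 0.27 on the log2(TPM + 1) scale (SE, n = 3 against 12; limma adjusted p = 7.74e-07), in a comparison where 5.52% of genes were called higher. This placed Snhg1 104th from the top of the 10312 genes. In HSPCs Snhg1 was lower by 1.92 ± 0.27 (log2 difference -1.92, adjusted p = 3.04e-05, limma), where 81.0% of genes were called lower. In B cells the difference was -1.01 ± 0.27 (adjusted p = 5.38e-03, limma), where 49.9% of genes were called lower.

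**Figure D1:**
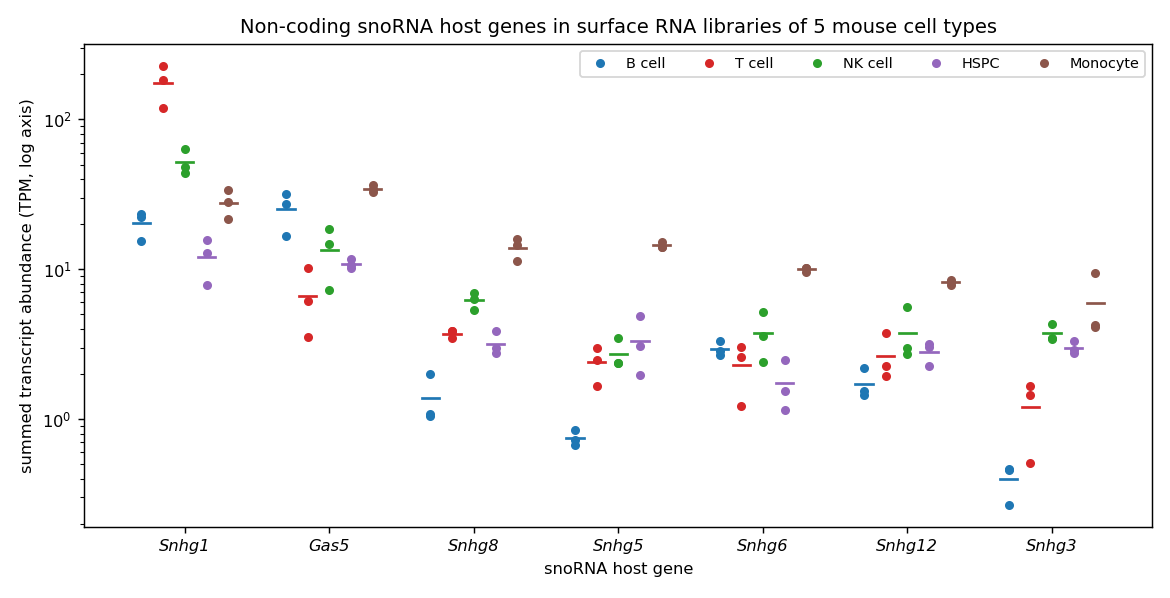
Summed transcript abundance of the 7 host genes in TPM on a log axis, with 1 point per library and a line at the mean of the 3 libraries of a cell type. The T cell libraries of Snhg1 lie at 119 to 228 TPM, above all other points, and the B cell libraries of Snhg3, Snhg5 and Snhg8 lie at the bottom of their columns.

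Nearly all of the Snhg1 signal on T cells came from Snhg1-213, whose exons are printed above. Snhg1-213 was at 178, 221 and 113 TPM in T cells, which was 96.7% of the Snhg1 sum on average, and at 57.3, 38.3 and 37.1 TPM in NK cells (84.7%). In B cells it reached 12.04, 19.6 and 21.2 TPM (86.0%), in HSPCs 3.78, 8.82 and 7.76 TPM (55.1%) and in monocytes 16.2, 13.6 and 4.86 TPM (40.3%). It was the only one of the 159 transcripts above the study's hit threshold of 50 TPM in any library and the only one with a mean of at least 5 TPM over the 15 libraries. In the fit of 12022 transcripts it was higher in T cells by 3.36 ± 0.35 (SE, log2 scale, limma adjusted p = 3.90e-06), where 4.61% of transcripts were called higher.

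Without Snhg1-213 the cell type order of Snhg1 changed. The other 16 transcripts summed to 4.47, 6.25 and 5.70 TPM in T cells, 6.66, 5.51 and 11.0 TPM in NK cells, 3.44, 2.51 and 1.98 TPM in B cells, 4.02, 6.92 and 5.04 TPM in HSPCs and 11.8, 19.9 and 16.7 TPM in monocytes. The T cell libraries then overlapped those of NK cells and HSPCs, and the T cell difference was -0.22 (limma adjusted p = 0.352). The next transcript by mean level, the lncRNA-type Snhg1-223, was at 1.72, 2.74 and 3.69 TPM in T cells and 4.18, 2.98 and 7.06 TPM in NK cells, and its T cell difference was 0.06 ± 0.38 (adjusted p = 0.894, limma).

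**Figure D2:**
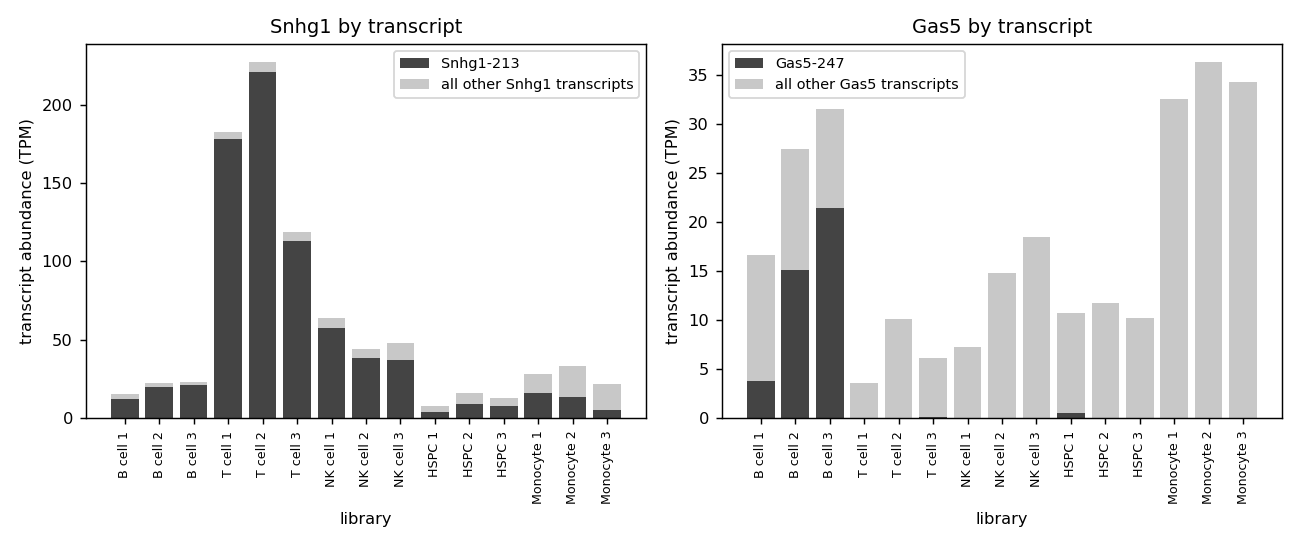
Abundance in TPM per library, on linear axes from 0, of Snhg1 (left) and Gas5 (right), each divided into 1 transcript (dark) and the sum of all its other transcripts (light). Snhg1-213 fills 95.2% to 97.5% of the T cell bars, and Gas5-247 is visible in the B cell bars, at 3.77, 15.1 and 21.5 TPM.

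The snoRNAs inside Snhg1-213 had different patterns over the same libraries. Snord22, a snoRNA that acts in the maturation of the small ribosomal subunit RNA, was at 1929, 2795 and 1716 TPM in T cells and 304, 1351 and 1338 TPM in B cells. It was at 435, 524 and 489 TPM in NK cells, 483, 527 and 601 TPM in monocytes and 82.5, 83.7 and 73.2 TPM in HSPCs. T cells stood above every other library for Snord22, and HSPCs below. Gm22744, in the first exon, was listed at 0 in each of the 9 B, T and NK cell libraries, at 2.66, 8.19 and 7.58 TPM in HSPCs and at 122, 284 and 290 TPM in monocytes. Its neighbours on either side were detected in every library of all 5 cell types. Gm24453, upstream of it, was at 63.0, 41.8 and 37.3 TPM in T cells, and Gm22680, downstream, at 412, 312 and 254 TPM. Snord22 and Gm22744 lie whole within Snhg1-213, and how reads from them were divided between snoRNA and host transcript was not tested.

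Gas5 was carried by many transcripts at low levels and had its highest levels on monocytes and B cells. It was at 32.5, 36.4 and 34.3 TPM in monocytes and 16.7, 27.4 and 31.6 TPM in B cells. In NK cells it was 7.21, 14.8 and 18.5 TPM, in HSPCs 10.7, 11.7 and 10.2 TPM and in T cells 3.55, 10.1 and 6.13 TPM. Monocytes lay above B cells without overlap, B cells overlapped NK cells, NK cells overlapped HSPCs, and HSPCs lay just above T cells without overlap. B cells exceeded the mean of the other 4 by 0.84 ± 0.29 (SE, log2 scale, limma adjusted p = 0.0249), where 9.08% of genes were called higher. This call was lost without B cell replicate 2 (adjusted p = 0.0984) or replicate 3 (adjusted p = 0.144, both limma). In T cells the difference was -1.45 ± 0.29 (adjusted p = 3.33e-04, limma), in a comparison where 83.2% of genes were called lower.

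The B cell call of Gas5 also rested on a single transcript. Gas5-247, an lncRNA-type transcript outside the annotation used here, was at 3.77, 15.1 and 21.5 TPM in the B cell libraries and at most 0.511 TPM in the other 12. Its B cell values alone bring it past the mean of 1 TPM, so no test of it there is given. Without it the Gas5 sum was 12.9, 12.3 and 10.1 TPM in B cells, within the range of NK cells, and the B cell difference was -0.15 (adjusted p = 0.645, limma). The most abundant Gas5 transcript on average, Gas5-229, was at 7.62, 7.85 and 3.93 TPM in B cells and listed at 0 in all 3 monocyte libraries. In monocytes Gas5-255 (10.2, 5.10 and 8.29 TPM) and Gas5-261 (3.44, 16.1 and 3.56 TPM) had the highest means of the Gas5 transcripts. Their monocyte values alone bring each past the mean of 1 TPM, so no test of them there is given. Calls were counted over the 12 host transcripts with a mean of at least 1 TPM. In B cells 2 were called higher and 3 lower (9.02% of all transcripts higher and 49.3% lower). The 2 include Gas5-247, whose call there was not read as a result. In T cells 1 was called higher and 3 lower (4.61% of all transcripts higher and 75.4% lower), and in NK cells 1 higher and 1 lower (4.78% higher and 43.2% lower). In HSPCs 0 were called higher and 2 lower (1.16% and 71.1%). In monocytes 6 were called higher and 3 lower (86.5% and 4.52% of all transcripts), the 3 being Snhg1-213, Gas5-229 and Gas5-247. Any monocyte call of Gas5-255, Gas5-261 or Gas5-247 was not read as a result, since 1 cell type alone brings each past the filter. Another 78 Gas5 transcripts were listed for monocytes alone, at 6.01, 1.93 and 4.03 TPM in all, and are not part of the sums given here.

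Snhg3, Snhg5, Snhg6, Snhg8 and Snhg12 were all below 16 TPM in every library. Each had its highest mean on monocytes, and each but Snhg6 had its lowest mean on B cells. Snhg5, host of the Snord50 pair, was at 0.721, 0.671 and 0.844 TPM in B cells, against 1.67 to 2.99 TPM in T cells, 2.36 to 3.46 TPM in NK cells, 1.961 to 4.86 TPM in HSPCs and 14.0 to 15.2 TPM in monocytes. All B cell libraries were below all others, and the difference was -1.60 ± 0.18 (SE, log2 scale, limma adjusted p = 6.06e-06). Snhg8, host of Snora24, was at 2.00, 1.045 and 1.08 TPM in B cells, 2.76 to 3.85 TPM in HSPCs, 3.47 to 3.85 TPM in T cells, 5.35 to 6.98 TPM in NK cells and 11.4 to 15.8 TPM in monocytes. Its B cell difference was -1.53 ± 0.16 (adjusted p = 2.55e-06, limma), and the B cell libraries again lay below all others.

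Snhg3, host of the Snora73 pair, was at 0.467, 0.459 and 0.268 TPM in B cells and 0.512, 1.67 and 1.44 TPM in T cells. It was 2.74 to 3.34 TPM in HSPCs, 3.42 to 4.33 TPM in NK cells and 4.13 to 9.44 TPM in monocytes, where the highest value came from replicate 1 alone. B cells, T cells and HSPCs did not overlap with one another, and the B cell difference was -1.53 ± 0.21 (adjusted p = 2.83e-05, limma). Snhg12, which hosts H/ACA snoRNAs and Snord99, was at 2.19, 1.53 and 1.44 TPM in B cells and overlapped T cells at 1.94 to 3.77 TPM, and its B cell difference was -0.86 ± 0.19 (adjusted p = 1.52e-03, limma). Snhg6, host of Snord87, was at 3.31, 2.83 and 2.66 TPM in B cells, between NK cells (2.42 to 5.17 TPM) and T cells (1.23 to 3.02 TPM) by mean, with overlap on both sides, and its B cell difference was -0.21 ± 0.20 (adjusted p = 0.381, limma). Of the 7 host genes, 5 were called lower in B cells and Gas5 was called higher, beside 49.9% and 9.08% of all genes. Without the monocyte libraries the Snhg12 call in B cells was lost (adjusted p = 0.0719, limma).

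The 2 transcripts with the highest mean in each of these genes were all at low levels. Snhg8-201 had a mean of 0.441 TPM in B cells and 7.11 TPM in monocytes, and Snhg8-204 0.573 and 5.88 TPM. Both were called lower in B cells and higher in monocytes by limma, as were 49.3% and 86.5% of all transcripts. Snhg6-203 and Snhg6-215 had means of 0.667 and 1.51 TPM in B cells and 3.70 and 2.88 TPM in monocytes. The libraries differed, with Snhg6-203 at 55.7%, 5.58% and 0% of the Snhg6 sum in B cells. In monocytes it was at 57.2%, 46.9% and 5.34% of that sum. Snhg3-204 was highest in NK cells, at a mean of 2.00 TPM, and Snhg3-202 in monocytes, at 3.62 TPM. Snhg5-223 and Snhg5-209, both of retained-intron type, had means of 0.0506 and 0.207 TPM in B cells against 0.532 and 1.21 TPM in T cells. Snhg12-217 had means of 0.985 TPM in B cells to 2.24 TPM in monocytes, and Snhg12-210 had 0.207 and 1.54 TPM there.

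NK cells gave calls for Snhg3 (0.67 ± 0.21, adjusted p = 0.0194) and Snhg8 (0.50 ± 0.16, adjusted p = 0.0231), both higher by limma, where 5.41% of genes were called higher. Each of these calls was lost on leaving out single NK cell libraries, Snhg3 without replicate 1 (adjusted p = 0.0518) or replicate 3 (0.0633) and Snhg8 without replicate 2 (0.0734) or replicate 3 (0.0709). Both were also lost after rescaling without ribosomal RNA (adjusted p = 0.0563 and 0.169, limma) and with a pseudocount of 10 (0.0998 and 0.0594). Snhg1 was higher in NK cells by 0.63 ± 0.27 without passing the threshold (adjusted p = 0.0702, limma). In monocytes 6 of the 7, all but Snhg1, were called higher, which is near the 89.8% of all genes called higher there. Their monocyte differences lay between 1.26 for Snhg3 and 2.33 for Snhg5, below the median of 2.48 of all genes. In T cells Gas5, Snhg3, Snhg5 and Snhg6 were called lower, 4 of 7 beside 83.2% of all genes. The Snhg5 call in T cells was lost without B cell replicate 3 or Monocyte replicate 2 or 3 (adjusted p = 0.0533, 0.0544 and 0.05003), and without T cell replicate 1 or 3 (adjusted p = 0.0637 and 0.238), and the Snhg6 call without T cell replicate 1 (adjusted p = 0.147, all limma). In HSPCs Snhg1, Snhg6 and Snhg8 were called lower, 3 of 7 beside 81.0%, and the Snhg8 call was lost without HSPC replicate 1 (adjusted p = 0.0631) or 3 (0.0509, both limma). Without the monocyte libraries the HSPC differences of Snhg6 and Snhg8 were -0.53 and -0.04, and the T cell differences of Snhg3, Snhg5 and Snhg6 were -0.47, 0.16 and -0.19, none of them called. No host gene was called higher in HSPCs, lower in NK cells or lower in monocytes, beside 1.51%, 36.2% and 4.16% of all genes.

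TPM are shares of a library, and the scaling decided many of these directions. Beside the values as deposited, the fits were repeated after leaving out ribosomal RNA and 3 transcripts with equal values, after keeping long RNA types only, and after quantile normalization. Under all 4 scalings Snhg3, Snhg5, Snhg8 and Snhg12 were called lower in B cells, Gas5 was called higher in B cells and Snhg1 was called higher in T cells, by 2.21 to 4.14 on the log2 scale. Snhg1 in monocytes was negative under all 4 and called lower under all but the values as deposited. With the values as deposited but without Snhg1-213, the Snhg1 difference was 1.51 in monocytes and -0.22 in T cells. Without Gas5-247 the Gas5 difference in B cells was -0.15. As deposited, these directions of Snhg1 and Gas5 therefore rested on a single transcript each. Snhg3 in HSPCs was positive under all 4, with 0.36 as deposited (adjusted p = 0.115) and 2.21, 1.99 and 1.34 under the others, all called by limma. By contrast, the other monocyte directions and most T cell and HSPC directions turned. Gas5 in monocytes was 1.43 higher as deposited and -1.32 with long RNA types only. Snhg8 in T cells was -0.27 as deposited, -0.79 without ribosomal RNA and 1.08 with long RNA types only, and Snhg5 in HSPCs was -0.04 as deposited and 1.67 without ribosomal RNA.

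**Figure D3:**
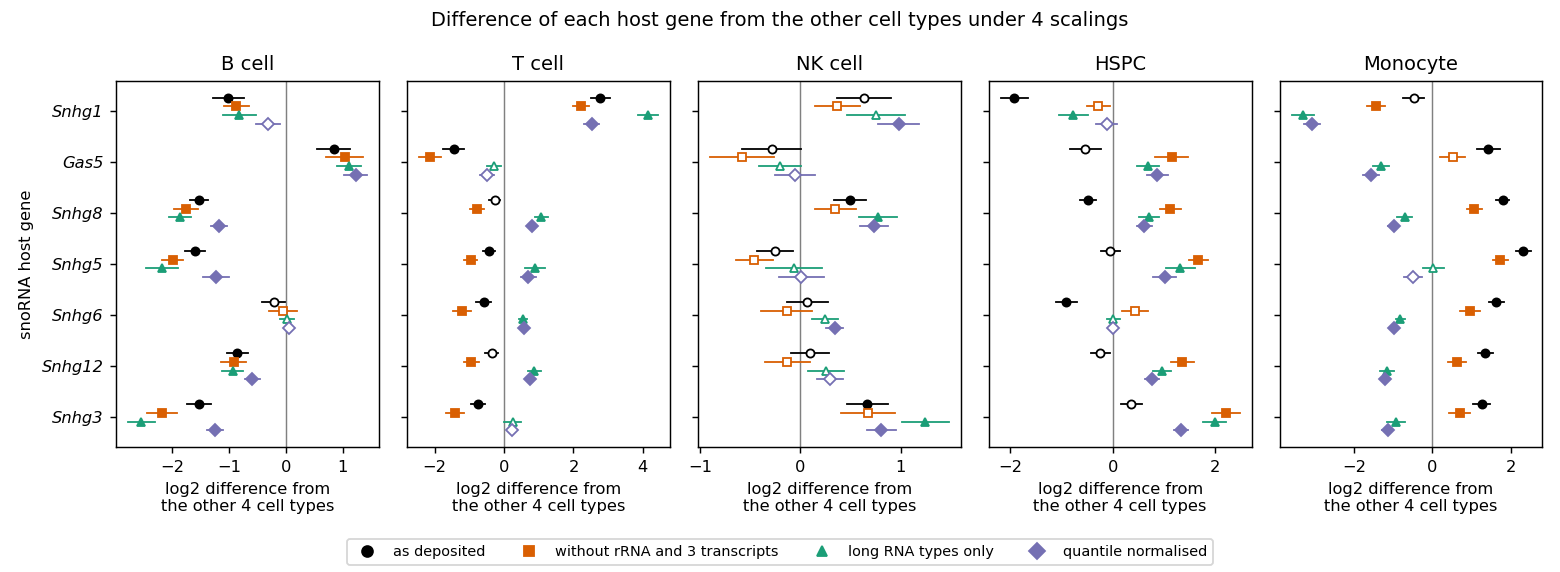
Difference of each host gene in each cell type from the mean of the other 4, on the log2(TPM + 1) scale with bars of 1 SE, under 4 scalings. Filled points were called by limma and open points were not. In the B cell panel the points of Snhg3, Snhg5, Snhg8 and Snhg12 are all on the negative side, and in the monocyte panel Snhg1 is on the negative side under each scaling, while each of the other 6 has points on both sides of 0.

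The share of TPM in retained-intron transcripts was highest for Snhg1 and Snhg5. Snhg1 had 97.0% of its TPM in such transcripts in T cells (95.6% to 97.9%), 87.0% in NK cells, 86.3% in B cells, 65.9% in monocytes and 59.4% in HSPCs. Snhg5 had 88.9% in NK cells, 85.1% in T cells, 67.3% in monocytes, 58.2% in HSPCs and 48.5% in B cells (31.1% to 79.4%). Gas5 had 3.57% in B cells and 22.3% to 38.7% on average in the other cell types, and its B cell libraries, at 1.23% to 5.88%, lay below all others. Snhg6 ranged from 3.69% in B cells to 16.6% in HSPCs on average and Snhg8 from 0.00% to 6.44%, while Snhg3 and Snhg12 had no transcript of this type in the tables. Of the 18 Snhg12 transcripts, 8 of lncRNA type held a whole snoRNA in an exon, so the type does not by itself separate spliced from unspliced RNA. These shares are descriptions with no test.

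The snoRNAs inside the host genes were measured as transcripts of their own. Of the 29, 27 were found in the surface tables and 26 passed the mean of 1 TPM, the exception being Snord78 of Gas5, which was listed at 0 in 14 libraries and at 1.32 TPM in T cell replicate 1. In T cells 16 of the 26 were called higher and 2 lower, where 4.61% of transcripts were called higher, and the 249 other snoRNAs tested had 129 called higher and 22 lower. In B cells 21 of the 26 were called lower and 0 higher, beside 49.3% of transcripts called lower and 122 of the 249 other snoRNAs. In monocytes 16 were called higher and 0 lower (86.5% of transcripts higher), in HSPCs 1 higher and 17 lower (71.1% lower), and in NK cells 4 higher and 3 lower (4.78% and 43.2%). The median difference of the hosted snoRNAs was 1.46 in monocytes, 1.08 in T cells, 0.14 in NK cells, -1.56 in HSPCs and -2.04 in B cells, and that of the other snoRNAs was 0.90, 1.23, 0.22, -1.08 and -0.95 in the same order. Rescaled without ribosomal RNA, 11 were called higher and 3 lower in T cells (2.16% and 65.7% of transcripts), 9 and 5 in monocytes (69.3% and 7.03%), 7 and 2 in HSPCs (18.5% and 10.1%), and 1 and 19 in B cells (9.45% and 27.3%).

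Snord99 of Snhg12 was at 591, 432 and 333 TPM in T cells and at 11.8 to 110 TPM in all other libraries, without overlap (log2 difference 3.48 ± 0.31, limma adjusted p = 1.46e-06). Its host was at 1.94, 3.77 and 2.26 TPM in those T cell libraries, overlapping those of NK cells and HSPCs. Gm23246 of Snhg1 was at 2136, 1901 and 1083 TPM in T cells, 466 to 534 TPM in NK cells, 319 to 589 TPM in monocytes, 60.2 to 83.7 TPM in HSPCs and 14.3 to 53.9 TPM in B cells (T cell difference 3.44 ± 0.34, adjusted p = 2.88e-06, limma). Gm22680 of Snhg1 was at 412, 312 and 254 TPM in T cells and 8.08 to 106 TPM elsewhere (3.29 ± 0.30, adjusted p = 1.72e-06, limma). T cells lay apart from every other library for these 3 snoRNAs.

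Snord47 of Gas5 followed another order. It was at 163, 244 and 183 TPM in monocytes, 134, 151 and 67.7 TPM in T cells, 45.6 to 75.1 TPM in NK cells, 9.45 to 16.9 TPM in HSPCs and 4.19 to 7.58 TPM in B cells, and it was called higher in T cells (1.82 ± 0.29, adjusted p = 8.53e-05) and lower in B cells (-3.32 ± 0.29, adjusted p = 1.83e-06, both limma). Its host Gas5 had its lowest mean on T cells, and on B cells was exceeded by monocytes alone. All 8 tested snoRNAs of Gas5 were called lower in B cells, where 49.3% of all transcripts were. Gas5 itself was called higher there, a call lost without Gas5-247 or without B cell replicate 2 or 3, as given above. The Snord50 pair of Snhg5 was at 68.6 to 146 TPM (Snord50a) and 62.1 to 108 TPM (Snord50b) in T cells, against 4.26 to 10.1 TPM and 4.203 to 7.21 TPM in B cells. The H/ACA-named Snora73a and Snora73b of Snhg3 varied less, from 13.3 to 49.2 TPM and from 5.76 to 21.8 TPM over all 15 libraries, and Snora24 of Snhg8 was highest in NK cells at 25.0 to 35.2 TPM, overlapping monocytes. TPM of RNAs this short depend on the effective length that the quantifier assigns, so levels of snoRNAs and hosts were not compared in size.

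Across the 15 libraries, in which groups of 3 share a cell type, the correlation of log2(TPM + 1) between host and snoRNA was a description only. For Snhg1 it was 0.95 with Gm22680, 0.91 with Gm25894, 0.85 with Gm23246 and -0.34 with Gm22744. For the 8 tested snoRNAs of Gas5 it lay between -0.41 with Gm22489 and 0.36 with Mir5117, which the annotation types as a snoRNA. For Snhg12 it was 0.11 with Snord99 and 0.73 with Snora61.

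**Figure D4:**
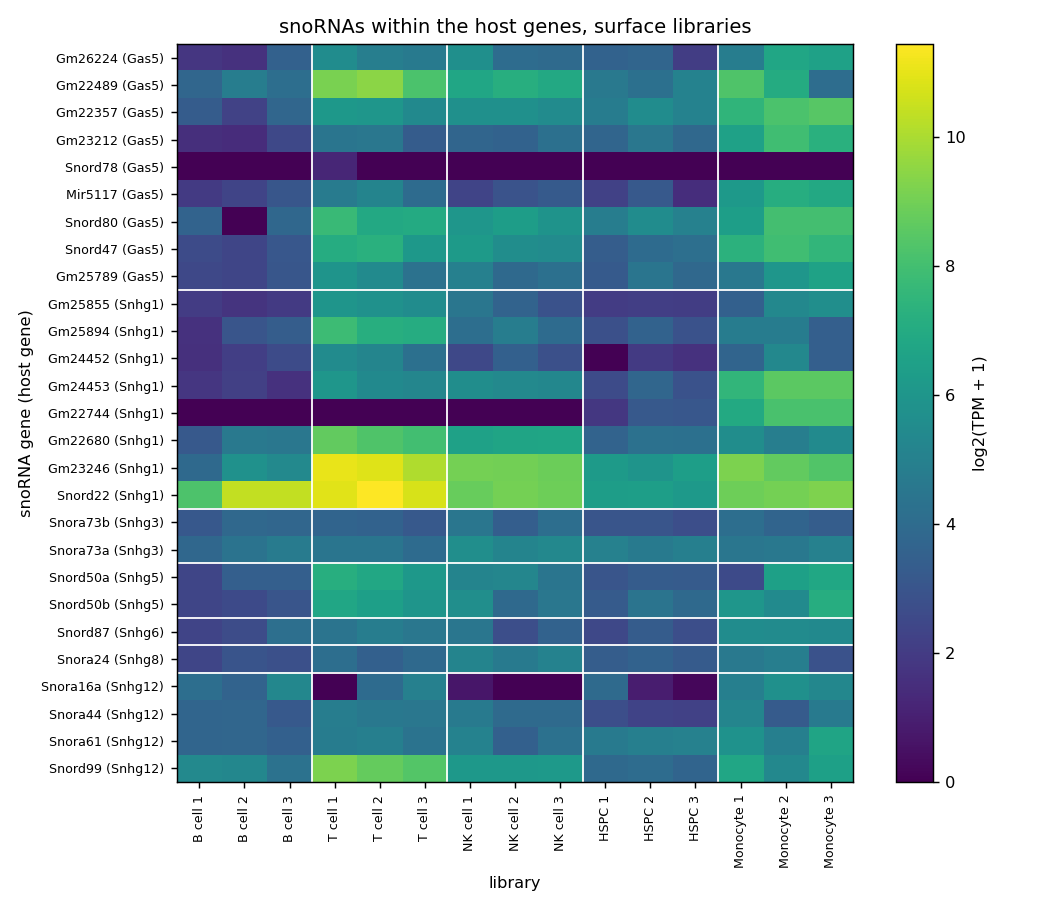
Levels of the 27 hosted snoRNAs found in the surface tables, as log2(TPM + 1) by color, with 1 column per library and white lines between cell types and between hosts. The T cell columns are brightest for Gm23246, Gm22680 and Snord99, and Gm22744 is at 0 in the B, T and NK cell columns.

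Other genes of snoRNA biology were counted in lists. Of 14 other non-coding hosts, 9 were tested, and 8 were called lower in T cells, among them Zfas1 (-1.36 log2), Snhg4 (-1.05) and Snhg17 (-0.74). In B cells 6 were called lower, among them Snhg15 (-1.30), Dancr (-0.98) and Snhg4 (-0.96). In monocytes 9 were called higher, where 89.8% of all genes were. Their median difference was -0.74 in T cells and -0.65 in B cells, beside -0.96 and -0.44 for all genes. The monocyte count includes Epb41l4aos, at most 0.992 TPM outside monocytes, and Snhg16. Both passed the mean of 1 TPM only through monocytes, so that count was not read as a result. T and B cells were compared with a mean that includes monocytes. The counts there include Snhg16 (T cells) and Epb41l4aos (B cells), whose calls were likewise not read as results. Of 16 protein-coding hosts, such as genes of ribosomal proteins and translation factors with snoRNAs in their introns, 14 were called lower in T cells, among them Eef2 (-1.99) and Eef1b2 (-1.66), and in B cells 4 were lower, among them Eif4a1 (-1.51) and Eif4a2 (-1.48), and 2 higher, among them Rps3 (0.77).

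Genes of the proteins that bind snoRNAs were lower in T cells in 9 of 9 cases, among them Nhp2 (-1.87) and Gar1 (-1.27) of the H/ACA particle and Snu13 (-1.54) of the C/D particle, with a median of -1.23. In B cells 7 of the 9 were lower, among them Nop10 (-1.32) and Dkc1 (-1.18), the pseudouridine synthase. Of 9 nonsense-mediated decay factors tested out of 10, 9 were lower in T cells, among them Upf1 (-1.51), the helicase of that pathway, and 3 were lower in B cells, among them Upf2 (-0.54). Of 6 regulators of RNAs with a terminal oligopyrimidine start, a class to which many snoRNA host RNAs belong, 6 were lower in T cells, among them Larp1 (-1.58) and Mtor (-1.03), and 3 in B cells, among them Eif4ebp1 (-1.19). All of these calls were by limma with adjusted p over all genes, and the counts of all 5 lists stand beside 83.2% of all genes called lower in T cells, and beside 49.9% called lower and 9.08% called higher in B cells. Rescaled without ribosomal RNA, 1 of 10 decay factors was called lower in B cells (Upf3b, -0.42) and 1 higher (Smg1, 0.66), of the oligopyrimidine regulators Eif4ebp1 alone was called lower there, and the snoRNA-binding proteins had 5 of 9 lower, beside 34.6% of all genes lower.

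The genes most like each host over the 15 surface libraries were found among 3519 other genes with a mean of at least 5 TPM, by the correlation of log2(TPM + 1). For Snhg1 they were all snoRNA genes by name or type, Snord32a (0.959), Snord57 (0.949) and Gm22858 (0.943). For Gas5 they were Snx5 (0.954), Akap8 (0.953) and Mknk2 (0.951), and for Snhg6 Rpl29 (0.987), Fam53b (0.986) and Tcf12 (0.986). Snhg5 was most like Ramp1 (0.966), Snhg8 most like Spn (0.964), Snhg12 most like Cct6a (0.967), and Snhg3 most like a gene with an identifier only, followed by Gm42047 (0.922). Among the 7 themselves, Snhg8 and Snhg12 had the highest correlation (0.93) and Snhg1 and Gas5 the lowest (-0.49).

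In PBMCs Snhg1, Gas5 and Snhg12 were the most abundant of the host genes. By the TPM that the authors' RSEM run gave, Snhg1 was at 551 to 855 TPM (median 716) over the 9 libraries, Gas5 at 250.2 to 414 TPM (median 313) and Snhg12 at 235 to 345 TPM (median 266). Snhg8 was at 22.9 to 34.8 TPM, Snhg3 at 2.55 to 4.95 TPM, Snhg5 at 1.56 to 3.28 TPM and Snhg6 at 0.0600 to 0.830 TPM. Snhg1 was above Gas5 and Snhg12 in every library, the ranges of Gas5 and Snhg12 overlapped, as did those of Snhg3 and Snhg5, and Snhg6 lay below all others. Snhg12 was thus among the 3 highest here, whereas on the surface it lay between 1.44 and 8.44 TPM. The 2 kinds of table were normalised separately and no difference between them was tested.

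Counts per library in PBMCs ranged from 4686426 to 9055797, of which 50.5% to 57.0% fell to 1 ribosomal RNA gene. Snhg1 had 7937 to 14860 expected counts, Gas5 4025 to 8030 and Snhg12 4237 to 8800, against 30.4 to 68.2 for Snhg3, 29.8 to 59.9 for Snhg5 and 1.00 to 16.0 for Snhg6. The SE of the log2 differences was 0.18 to 0.20 for Snhg3 and Snhg5, 0.50 to 0.56 for Snhg6 and 0.14 to 0.16 for the other 4. Of the 7 genes 0 were called in any of the 3 comparisons by edgeR, and at an unadjusted p below 0.05 there were 0 for WT against ct, 2 for Y against ct and 3 for Y against WT, beside 11.8%, 8.61% and 11.8% of all genes. DESeq2 called 0 as well, without an adjusted p for Snhg6. Of 11635 genes tested, 2.36%, 0.705% and 1.25% were called in the same comparisons.

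Snhg3 was nearest to a call. It was at 9.13, 8.30 and 8.74 CPM (counts scaled to the library size) in Y, 4.57, 3.79 and 7.19 CPM in WT and 5.93, 7.47 and 6.97 CPM in ct. The Y libraries lay above all others, and Y exceeded WT by 0.76 ± 0.20 (SE, log2 scale, edgeR adjusted p = 0.0803). Without WT replicate 3 the difference was 1.04 and passed (adjusted p = 9.80e-03, edgeR). Rcc1 lies on the same strand over most of Snhg3 and Gm17300 on the other, and their part in these reads was not tested.

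Snhg1 was at 1726, 1601 and 1911 CPM in Y, 1057, 1225 and 1675 CPM in ct and 1510, 1141 and 1259 CPM in WT. Y lay above WT without overlap and overlapped ct through ct replicate 3. The differences were 0.40 ± 0.15 for Y against ct (adjusted p = 0.430) and 0.42 ± 0.15 for Y against WT (adjusted p = 0.263, both edgeR), and without ct replicate 3 the first was 0.62 and passed (adjusted p = 0.0289, edgeR). Gas5 was at 875, 799.7 and 1033 CPM in Y, 544, 724 and 792 CPM in ct and 802, 683 and 676 CPM in WT, with 0.39 ± 0.14 for Y against ct (adjusted p = 0.370, edgeR). Snhg12 was at 922, 910.1 and 992 CPM in Y, 653, 685 and 1040 CPM in ct and 895, 624 and 749 CPM in WT, with 0.25 ± 0.16 for Y against ct (adjusted p = 0.756, edgeR).

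Snhg8 was at 50.02 to 82.0 CPM in ct, 57.9 to 83.4 CPM in WT and 67.4 to 86.5 CPM in Y, and its differences were -0.01 ± 0.16, 0.13 ± 0.16 and 0.13 ± 0.16 for WT against ct, Y against ct and Y against WT. Snhg5 was at 4.93 to 6.52 CPM in ct, 6.20 to 7.45 CPM in WT and 4.93 to 7.72 CPM in Y, with overlap between all groups. Snhg6 had 1 count in ct replicate 2 and 9 in each of the other ct libraries. In Y against ct all 7 differences were positive, with a median of 0.36 beside -0.0044 for all genes, of which 49.1% were positive. In Y against WT 6 of 7 were (50.2% of all genes), but these 2 comparisons share the Y libraries. In WT against ct 3 of 7 were positive (50.7% of all genes), with a median of -0.01. The 7 genes were measured in the same libraries, so their signs are not independent. Without a filter on low counts edgeR called Gas5 and Snhg1 for Y against ct (adjusted p = 0.0296 and 0.0231) and Snhg1 and Snhg3 for Y against WT (9.56e-03 and 3.38e-03), where of 29571 genes 133 were called higher and 124 lower, and 132 higher and 234 lower. Cell markers moved with these groups. The summed markers of neutrophils were 207 to 219 CPM in Y against 74.1 to 92.1 CPM in the others, and those of erythroid cells were 6841 to 8206 CPM in ct against 4254 to 4993 CPM in the others. Those of NK cells were 72.1 to 78.2 CPM in WT against 51.8 to 58.7 CPM in the others, and those of platelets 393 to 425 CPM in ct, 312 to 313 CPM in Y and 251 to 275 CPM in WT. Those of B cells were 303 to 313 CPM in Y against 316 to 344 CPM in the others. HSPC markers were 1.56 to 1.74 CPM in Y against 1.94 to 2.60 CPM in the others. The part of these cells in the host gene values was not tested. In these bulk libraries fewer cells of a type and less RNA per cell cannot be told apart.

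**Figure D5:**
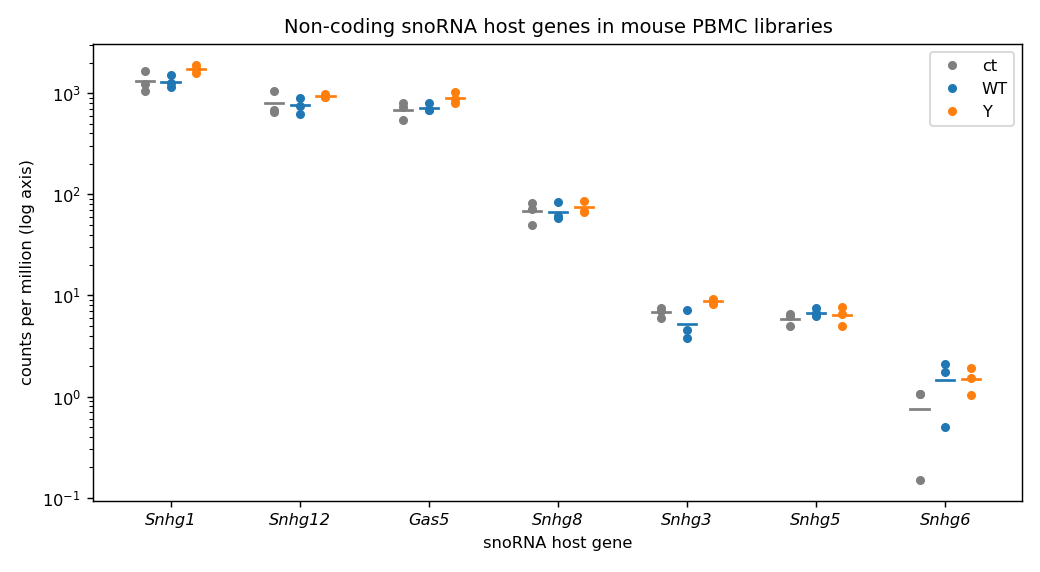
CPM of the 7 host genes in PBMCs on a log axis, with 1 point per library and a line at the mean of the 3 libraries of a group. Snhg1, Snhg12 and Gas5 lie at 544 CPM or above, Snhg8 at 50.02 to 86.5 CPM, and Snhg6 at 2.12 CPM or below.

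The hosted snoRNAs in PBMCs gave 0 calls among 28 tested in each comparison by edgeR, with 5, 4 and 2 at an unadjusted p below 0.05 for WT against ct, Y against ct and Y against WT, beside 11.8%, 8.61% and 11.8% of all genes. Gm22744, listed at 0 on B, T and NK cells, was counted in every PBMC library at 19.1 to 33.3 CPM, near its neighbours Gm24453 (9.84 to 15.4 CPM) and Gm22680 (29.4 to 52.9 CPM), and Snord22 was at 254 to 608 CPM. Snord50a was at 0.00 to 0.705 CPM while its near copy Snord50b was at 39.7 to 58.8 CPM, a split that cannot be told from the assignment of shared reads. Of the other non-coding hosts 8 were tested and 0 called in each comparison, and 0 genes of the other lists were called. The PBMC genes most like Snhg12 were Dancr (0.993), also a snoRNA host, Gm23262 (0.975) and Rpl10 (0.969), and those most like Snhg1 were Rpl13a (0.986), a ribosomal protein gene that hosts snoRNAs, Gm23201 (0.983) and Rpl13 (0.981), by the correlation of log2 CPM over 9 libraries among 11600 genes. For Gas5 they were Rabggtb (0.960), B930036N10Rik (0.952) and Rack1 (0.947).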

How the data were processed

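Surface reads were quantified with Kallisto, and the authors deposited TPM per transcript for each cell type. The submitters' processing notes name cutadapt for trimming and the study's methods name Trimmomatic. TPM were summed by gene name over the 102001 transcripts listed in all 5 tables. PBMC reads were trimmed with Trim Galore, and the authors deposited expected counts and TPM per gene from RSEM (mm10). The kit named for PBMCs does not mark strand. Expected counts were rounded.

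Surface values were tested with limma 3.58.1 on log2(TPM + 1) for genes or transcripts (snoRNAs as transcripts) with a mean of at least 1 TPM, as 1 cell type minus the mean of the others. PBMC counts were tested with edgeR 4.0.16 (quasi-likelihood, TMM, filterByExpr), with DESeq2 1.42.0 as the alternative. CPM use TMM library sizes. P-values were adjusted by Benjamini-Hochberg over all features. Both fits were tested on simulated data. No 2 PBMC libraries of a group agreed within sampling noise.

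Host genes and lists were chosen with earlier results of these data known. Named were the 7 genes, their transcripts with a mean of at least 5 TPM and the 2 highest of each, and up to 4 called genes per list by p. Transcripts and snoRNAs named beyond these were chosen after their values were seen.

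Replicate numbers shared by cell types and groups did not pair the libraries, except that T and NK cells of the same number deviated together (0.218 to 0.457).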

Additional observations from a re-analysis of the deposited data

How the results depend on the processing

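Calls of host genes on the surface depended mainly on the scaling. Rescaled without ribosomal RNA and the 3 equal-valued transcripts, HSPCs had 5 host genes higher and 0 lower (31.2% and 13.8% of all genes), monocytes 1 lower (6.43%) and NK cells 0 higher (5.08%), and HSPC differences turned for Gas5 (1.15), Snhg12 (1.36), Snhg5 (1.67), Snhg6 (0.44) and Snhg8 (1.12). Rescaled to long RNA types, HSPCs had 5 higher and 1 lower (25.5% and 18.2%), monocytes 0 higher and 6 lower (49.3% and 13.6%), and T cells 5 higher and 0 lower (11.3% and 39.7%). There HSPC values turned for Gas5 (0.69), Snhg12 (0.96), Snhg5 (1.32), Snhg6 (0.01) and Snhg8 (0.71), monocyte values for Gas5 (-1.32), Snhg12 (-1.15), Snhg3 (-0.93), Snhg6 (-0.81) and Snhg8 (-0.70), and T cell values for Snhg12 (0.87), Snhg3 (0.25), Snhg5 (0.89), Snhg6 (0.54) and Snhg8 (1.08). After quantile normalization HSPCs had 5 higher and 0 lower (28.0% and 24.8%), monocytes 0 higher and 6 lower (31.9% and 31.5%), NK cells 4 higher (11.3%), and T cells 5 higher and 0 lower (21.2% and 30.2%). There HSPC values turned for Gas5 (0.87), Snhg12 (0.77), Snhg5 (1.02), Snhg6 (0.01) and Snhg8 (0.62), monocyte values for Gas5 (-1.56), Snhg12 (-1.21), Snhg3 (-1.13), Snhg5 (-0.50), Snhg6 (-0.97) and Snhg8 (-0.99), and T cell values for Snhg12 (0.74), Snhg3 (0.23), Snhg5 (0.70), Snhg6 (0.57) and Snhg8 (0.81). The cause was not tested.

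With a pseudocount of 0.1 NK cells had 1 host gene higher (5.51% of all genes), and with 10 they had 0 higher and 1 lower (4.63% and 63.7%) and monocytes 1 lower (3.87%). Above 50 TPM in at least 1 library Snhg1 alone was left, which gave 0 higher and 1 lower in B cells, 1 lower in HSPCs, 0 higher in monocytes and NK cells and 0 lower in T cells. Of the 1344 genes tested there, 18.0% were higher and 44.8% lower in B cells and 76.9% lower in HSPCs. In monocytes 78.6% and in NK cells 13.2% were higher, and in T cells 62.5% were lower. With no filter 0 were higher in B cells (4.28%) and 1 in NK cells (3.72%). Without monocyte libraries HSPCs had 1 higher and 1 lower (9.07% and 21.9%, beside 1.51% and 81.0% with them) and T cells 1 lower (44.9%, beside 83.2%), and Snhg5 in T cells was 0.16. Without retained-intron transcripts T cells had 0 higher (5.51%) and NK cells 1 lower (43.2%), with Snhg1 at -0.05 in T cells and 0.84 in monocytes. Alternatives added after seeing the data left out 1 transcript each. Without Snhg1-213 T cells had 0 higher (5.51%), with Snhg1 at -0.22 in T cells and 1.51 in monocytes. Without Gas5-247 B cells had 0 higher (9.07%), with Gas5 at -0.15. With all transcripts listed in any table each count stayed at its value.

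The 12 tested host transcripts gave 5 calls in B cells, 4 in T cells, 2 each in NK cells and HSPCs and 9 in monocytes. These became 12, 12, 4, 22 and 20 of 40 tested after rescaling without ribosomal RNA, beside, of all 25928 transcripts, 69.3% higher and 7.03% lower in monocytes, 18.5% and 10.1% in HSPCs, 9.45% and 27.3% in B cells, 2.96% and 24.2% in NK cells, and 2.16% and 65.7% in T cells. NK cells had 1 with a pseudocount of 0.1. Above 50 TPM, where only Snhg1-213 was left, there were 0 in B cells and 1 in each other type. Of the 1142 transcripts tested there, 26.1% were higher and 55.5% lower in T cells, and 15.8% and 23.1% in NK cells. In HSPCs these were 2.89% and 72.2%, in monocytes 72.6% and 10.6%, and in B cells 19.7% and 43.5%. Hosted snoRNAs rescaled likewise gave 1 higher in B cells, 7 higher and 2 lower in HSPCs, and 9 higher and 5 lower in monocytes. The Snhg1 share of lncRNA-type in place of retained-intron transcripts was 3.04% in T cells and 40.6% in HSPCs.

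Leaving out each replicate in turn gave, for host genes, 0 to 2 higher and 0 lower in NK cells, 0 to 1 higher and 5 lower in B cells, 6 higher and 0 lower in monocytes, 1 higher and 2 to 5 lower in T cells, and 0 to 1 higher and 2 to 4 lower in HSPCs. T cells had 2 lower without T cell replicate 1. For transcripts, leaving out replicates gave 7 to 10 calls in monocytes, 3 to 8 in B cells, 1 to 3 in HSPCs, 3 to 4 in T cells and 0 to 4 in NK cells. Of all transcripts 85.5% to 86.4% were higher in monocytes. Lower were 35.8% to 53.5% in B cells, 57.9% to 74.5% in HSPCs, 67.7% to 77.9% in T cells and 24.3% to 47.3% in NK cells. The Snhg1 share ranged from 96.5% to 97.7% in T cells and 57.3% to 62.9% in HSPCs.

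In PBMCs 0 host genes were called with DESeq2, with its size factors in edgeR, without the ribosomal RNA gene or with only the 2 groups compared. With no filter there were 2 for Y against ct (133 higher and 124 lower of 29571 genes) and 2 for Y against WT (132 and 234). Leaving out each replicate gave 0 to 1 for Y against ct, 0 to 1 for Y against WT and 0 for WT against ct. The Y against ct call came without ct replicate 3 (116 higher and 51 lower of 11900 genes). The Y against WT call came without WT replicate 3 (33 higher and 47 lower of 11963 genes).

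With the replicate number as a block (replicate block), 6 higher and 0 lower were called in monocytes, 1 and 5 in B cells, 0 and 4 in HSPCs, 1 and 4 in T cells and 2 and 0 in NK cells. Of all genes these were 89.9% and 4.28%, 9.19% and 51.5%, 1.62% and 82.0%, 5.55% and 83.4%, and 5.71% and 38.4%. The transcripts gave 9, 5, 2, 4 and 2 calls in the same order. Of all transcripts 86.7% and 4.53%, 8.76% and 49.1%, 1.26% and 71.5%, 4.71% and 75.6%, and 4.62% and 42.8% were higher and lower. PBMCs gave 0 in each comparison. Deviations of same-numbered PBMC libraries correlated at -0.061 to 0.059, so the block has no pairing behind it there. Depth per surface library is unknown, and 1 to 16 counts limit Snhg6 in PBMCs.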
